A study of Homo sapiens with 9 samples.

Results

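ACHN cells that received ELOVL5 guide 1 were compared with ACHN cells that received a control guide, over every gene of the deposited expression table that was abundant enough to test. ACHN, an established line, derives from a human renal cell carcinoma. The group named KO#1 in the labels is ACHN with ELOVL5 targeted by CRISPR/Cas9 and guide RNA #1. The group sgControl is ACHN with a control guide RNA. The 6 libraries (3 per group) are part of a series of 9; the other 3, KO#2, carry a second ELOVL5 guide and enter only a direct comparison of the guides near the end. Of 57773 features in the table, 36301 were at 0 in all 6 libraries, 8623 were above 0 with a mean signal under 10, and the 12849 with a mean of at least 10 were tested. No drug treatment or time course appears in the labels, which leave unsaid whether KO#1 is 1 clone or a pool, and whether the libraries of a group are separate cultures. The p-values below therefore measure the spread between these libraries, which may be technical.

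ELOVL5 is an elongase of the endoplasmic reticulum that adds carbons to polyunsaturated fatty acids, the step between the desaturases on the way to arachidonic and docosahexaenoic acid. These fatty acids are built into membrane phospholipids and are precursors of signalling lipids. Cas9 cuts DNA, and the small insertions and deletions left by repair can disrupt the protein without removing the transcript. The kidney proximal tubule, from which most renal cell carcinomas are thought to arise, is an epithelium with a brush border of transporters, peptidases and endocytic receptors.

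The targeted transcript was lower in KO#1. ELOVL5 (chromosome 6) had signals of 805, 1345 and 1016 in KO#1 libraries, against 1999, 2713 and 2063 in sgControl libraries. The ratio of the KO#1 to the sgControl mean was 0.467, and the 2 sets of libraries did not overlap (log2 fold change −1.11, SE 0.219, limma adjusted p = 0.0116). All p-values called limma here are Benjamini-Hochberg adjusted over the 12849 features, the fold changes are on the log2(signal + 1) scale, which understates changes of low genes, and SE is the moderated standard error. The call held with each of the 6 libraries left out in turn (limma adjusted p 0.00568 to 0.0445), but not in a joint fit of all 9 libraries (limma adjusted p = 0.378). An exact permutation test of the 3 against 3 values gave p = 0.1 (two-sided), the smallest this design allows.

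The labelled cell type was checked on marker genes. PAX8, a transcription factor of the renal epithelium, had signals of 1898, 1994 and 2558 in KO#1 libraries, against 3669.7, 2813 and 2991 in sgControl libraries. The epithelial keratin KRT8 had 10071, 15284 and 7195 in KO#1 libraries, against 8939.9, 13065 and 7922 in sgControl libraries, and the mesenchymal filament VIM 9829.9, 13065 and 9749 in KO#1 libraries, against 8641, 10071 and 9308 in sgControl libraries. None of these 3 genes passed the test (limma adjusted p from 0.0727 to 0.883). They do not stand for all such markers: CDH1 and KRT19 were called lower in KO#1, and EPCAM and CDH2 higher. LRP2, SLC34A1, ANPEP, HNF4A, CDH6 and AQP1, which define the normal proximal tubule, fell short of the mean of 10 and were not tested. Of 18 leukocyte markers 11 were at 0 in all 6 libraries, PTPRC, CD3E and LYZ among them, and the summed signal of the list was 33.8 to 64.9 in KO#1 libraries and 18.1 to 43.2 in sgControl libraries. Of 15 red cell markers 9 were at 0 throughout, among them HBA2 and HBB; GYPC, described below, was the exception. Endothelial markers summed to 487 to 582 in KO#1 and 612 to 825 in sgControl libraries, with KDR, EMCN and PLVAP at 0. Fibroblast markers summed to 256 to 562 in KO#1 and 964 to 1148 in sgControl libraries, with COL1A2, DCN and LUM at 0. Striated muscle markers summed to 236 to 406 in KO#1 and 488 to 657 in sgControl libraries, with MYOD1, MYH6 and MYH7 at 0. Across tested genes, libraries correlated at 0.957 to 0.977 (log2 scale) with their own group and at 0.886 to 0.927 with the other. Mitochondrial transcripts took 5.30% to 5.91% of the signal in KO#1 and 5.49% to 6.16% in sgControl libraries. Quantile normalization gave all libraries the same total of 8625040, so raw depth is unknown.

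In all, 1887 of the 12849 tested features (14.7%) differed between KO#1 and sgControl at an adjusted p under 0.05. Of these, 899 were higher in KO#1 (7.0%) and 988 lower (7.69%), and 3784 features had an unadjusted p under 0.05. The median log2 fold change was 1.14 among the higher genes (median SE 0.240), −1.28 among the lower (median SE 0.248) and 0.03 over all tested features. A log2 fold change of at least 1 was reached by 543 higher and 681 lower genes, and one of at least 4 by 85 higher and 31 lower genes. KO#1 and sgControl libraries did not overlap in 4403 tested features (34.3%), and all but 1 of the 1887 called features were among these. The count varied with the library left out. It was 889, 2302 and 980 without sgControl replicate 1, 2 and 3, and 1005, 1486 and 1173 without KO#1 replicate 1, 2 and 3. With each of the 6 left out in turn, 712 features (326 higher, 386 lower) were called every time. Calls of that kind are said to hold in the lists below, where a member that fell under the mean of 10 with a library left out counts as not held. In a fit of all 9 libraries, which takes its spread from KO#2 as well, 311 features were called, and of 200 called genes followed one by one 104 no longer passed. Where the lower of both group means was under 5, the fold change depends on the pseudocount, so its values with 10 and 0.1 added in place of 1 are given beside it. A gene with a mean under 10 in 1 group entered the test only through its signal in the other group, which favours a large difference. This limit holds for each such gene named below and for such members in the counts of the lists.

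**Figure D1:**
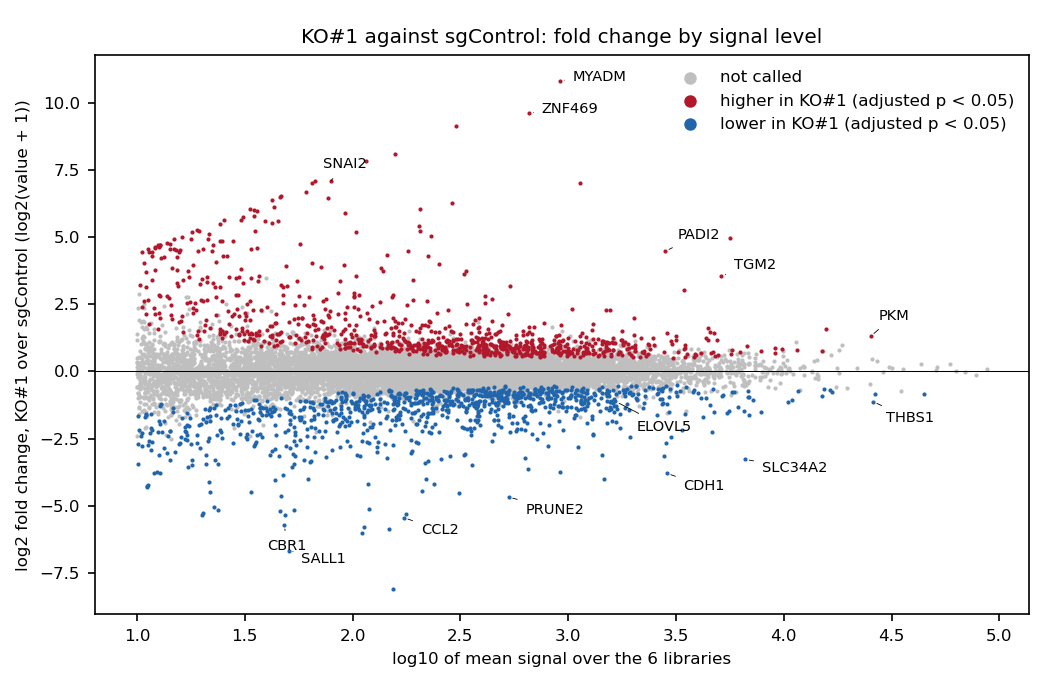
Log2 fold change of KO#1 over sgControl (vertical axis, log2(signal + 1) scale) against log10 of the mean signal over the 6 libraries (horizontal axis) for the 12849 tested features. The 899 features called higher are red, the 988 called lower blue and the rest grey. Genes listed at 0 in 1 group, such as MYADM, SNAI2 and SALL1, sit where the added 1 places them, so their height is not a fold change.

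Among called genes above the median level, TGM2, a transglutaminase that cross-links proteins, had signals of 10891, 9526 and 7888 in KO#1 libraries, against 969, 983 and 521 in sgControl libraries (log2 fold change 3.56, SE 0.26, limma adjusted p = 0.000104). PLAC8, a small cysteine-rich protein, stood at 1008, 679.6 and 1161 in KO#1 libraries, against 114, 45.9 and 199 in sgControl libraries (log2 fold change 3.17, SE 0.466, limma adjusted p = 0.00295). PLXDC2, a plexin domain-containing membrane protein, had 386, 642 and 789.8 in KO#1 libraries, against 64.4, 47.3 and 33.2 in sgControl libraries (log2 fold change 3.61, SE 0.327, limma adjusted p = 0.000301), and the neurofilament light chain gene NEFL had 878, 605 and 399.9 in KO#1 libraries, against 36.2, 39.6 and 58 in sgControl libraries (log2 fold change 3.74, SE 0.315, limma adjusted p = 0.000194). In these 4 genes the lowest KO#1 library exceeded the highest sgControl library. Such separation, here and below, adds no evidence to a call, because all but 1 of the 1887 called features showed it. At the lower end, PAPPA, a metalloprotease that cleaves insulin-like growth factor binding proteins, had 36.4, 49.4 and 98.8 in KO#1 libraries, against 586, 607 and 764 in sgControl libraries (log2 fold change −3.5, SE 0.34, limma adjusted p = 0.000393). SCIN, an actin-severing protein, had 28.3, 47.9 and 51 in KO#1 libraries, against 196, 437 and 788 in sgControl libraries (log2 fold change −3.28, SE 0.467, limma adjusted p = 0.00257). All KO#1 libraries of both lay below all sgControl libraries. Each of these 6 calls survived leaving out any 1 library (highest limma adjusted p 0.0161, for SCIN).

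A further set of genes was listed at 0 in all libraries of 1 group. There were 34 such genes at 0 in sgControl, with KO#1 means of 21.1 to 1836 (median 36.9), and 2 at 0 in KO#1. All 36 were called, which follows in part from the filter: a gene at 0 in sgControl entered the test only through its KO#1 signal. No fold change is given for them, and the same limit holds for each one named below. MYADM and GYPC, membrane proteins of haematopoietic cells among others, had the highest KO#1 signals: MYADM 2332, 1475 and 1701 and GYPC 755, 307 and 747. HYDIN, a protein of motile cilia, had 293, 187 and 209.7, and SYK, a tyrosine kinase of immune receptors, 140.1, 145 and 117 in KO#1 libraries. The 2 Toll-like receptors for bacterial lipids went opposite ways. TLR4, the receptor for lipopolysaccharide, was listed at 0 in KO#1 libraries and had 43.3, 48.1 and 28.7 in sgControl libraries (limma adjusted p = 0.000167). TLR2, the receptor for lipoproteins, had 79.4, 74.6 and 124 in KO#1 libraries and was listed at 0 in sgControl libraries (limma adjusted p = 3.47e-05).

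The 250 bases upstream of the start of GYPC and ADAMTS12, both listed at 0 in sgControl, and of the targeted gene ELOVL5 are shown to give their CpG content, the dinucleotide at which DNA methylation occurs. Sequences are from RefSeq (GRCh38.p14), 5′ to 3′ on the strand of the gene, with each CG in capitals. CG reads the same on both strands. GYPC lies at chr2:126655908-126656157 (plus strand), ADAMTS12 at chr5:33891991-33892240 (minus strand) and ELOVL5 at chr6:53348951-53349200 (minus strand).
GYPC promoter: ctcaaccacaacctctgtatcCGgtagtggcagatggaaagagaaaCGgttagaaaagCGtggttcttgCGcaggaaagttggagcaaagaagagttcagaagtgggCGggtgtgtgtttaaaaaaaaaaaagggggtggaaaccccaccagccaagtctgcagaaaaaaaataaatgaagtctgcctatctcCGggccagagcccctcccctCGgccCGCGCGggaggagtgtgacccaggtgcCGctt
ADAMTS12 promoter: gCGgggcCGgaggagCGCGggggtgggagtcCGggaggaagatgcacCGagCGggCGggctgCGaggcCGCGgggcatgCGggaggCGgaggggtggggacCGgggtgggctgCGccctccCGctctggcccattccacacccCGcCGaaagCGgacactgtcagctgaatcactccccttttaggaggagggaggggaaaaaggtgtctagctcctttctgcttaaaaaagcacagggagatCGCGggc
ELOVL5 promoter: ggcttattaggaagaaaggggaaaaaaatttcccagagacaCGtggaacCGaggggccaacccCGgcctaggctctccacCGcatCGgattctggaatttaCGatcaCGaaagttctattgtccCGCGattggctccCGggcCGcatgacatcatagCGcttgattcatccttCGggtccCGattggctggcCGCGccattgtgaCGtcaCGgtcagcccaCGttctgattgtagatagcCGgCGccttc
GYPC held 11 CG, and ADAMTS12 and ELOVL5 held 21 each. At least 1 CG stood in 93.1% of the 22114 such windows of RefSeq genes, with a median of 9. The median was 21 over the 12 matched genes listed at 0 in sgControl, 24 over 403 matched genes higher in KO#1, 23 over 466 matched genes lower in KO#1 and 22 over all 6521 matched tested genes. Methylation was not measured in these cells, and the counts say nothing about it.

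Of 19 tested genes of a list for the proximal tubule and its brush border 9 were called lower, 2 higher and 8 not called. The lower and higher calls were 47.4% and 10.5% of the list, beside 7.69% and 7.0% of all tested features. The median log2 fold change was −1.33. LRP2, MME, SLC22A6 and SLC22A8 of this list were at 0 in all 6 libraries. CRYAB, one of the lower calls, is also in the heat shock list. The shares thus describe the list and not the tubule as a whole. PDZK1, a scaffold that anchors transporters at the brush border, had 2.56, 5.11 and 3.56 in KO#1 libraries, against 178, 239 and 457 in sgControl libraries (log2 fold change −5.87, SE 0.402, limma adjusted p = 6.76e-05, with −4.35 and −6.18 at pseudocounts of 10 and 0.1). SLC17A1, a phosphate and urate transporter, had 13, 26.9 and 24.6 in KO#1 libraries, against 206, 147 and 209 in sgControl libraries (log2 fold change −3.11, SE 0.325, limma adjusted p = 0.000595). SLC3A1, a subunit of the cystine transporter, had 9.11, 12.2 and 13 in KO#1 libraries, against 87.9, 113 and 58.1 in sgControl libraries (log2 fold change −2.78, SE 0.336, limma adjusted p = 0.00117). In all 3 the KO#1 libraries lay far below the sgControl libraries. CRYAB, a small heat shock protein, had 4.0, 2.33 and 4.0 in KO#1 libraries, against 30.8, 48.6 and 47.7 in sgControl libraries (log2 fold change −3.28, SE 0.382, limma adjusted p = 0.000988, with −1.94 and −3.59 at pseudocounts of 10 and 0.1). The called genes going the other way were CA12, a membrane carbonic anhydrase, with 189, 139 and 94.6 in KO#1 libraries, against 28.1, 29.4 and 31.7 in sgControl libraries (log2 fold change 2.15, SE 0.295, limma adjusted p = 0.0022), and SLC16A9, a monocarboxylate transporter family member, with 456, 163 and 157 in KO#1 libraries, against 10.3, 25 and 15.4 in sgControl libraries (log2 fold change 3.75, SE 0.466, limma adjusted p = 0.00132). Of the 9 lower calls 8 held, as did both higher ones. The summed signal of the list was 6491 to 8863 in KO#1 libraries and 20389 to 33669 in sgControl libraries. A large part of that difference was the sodium-phosphate cotransporter SLC34A2, with 1137, 1214 and 1237 in KO#1 libraries, against 15791, 7853 and 12505 in sgControl libraries (log2 fold change −3.27, SE 0.243, limma adjusted p = 0.000114). Without it the list summed to 5278 to 7726 in KO#1 libraries and 12536 to 17877 in sgControl libraries.

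Of 15 tested nephron transcription factors 3 were called lower (20%) and 1 higher, with a median of −0.62; of these calls 1 and 0 held. SALL1, a zinc finger factor of nephron progenitors, was listed at 0 in all KO#1 libraries and had 117, 96 and 90.8 in sgControl libraries (limma adjusted p = 2.14e-05). TFAP2A, an AP-2 factor, had 279.8, 253 and 142 in KO#1 libraries, against 601, 444 and 549.9 in sgControl libraries (log2 fold change −1.29, SE 0.272, limma adjusted p = 0.0155). PAX2, a paired box factor needed for kidney formation, had 584, 585 and 469 in KO#1 libraries, against 938, 773 and 855 in sgControl libraries (log2 fold change −0.65, SE 0.169, limma adjusted p = 0.0345). MECOM, a zinc finger factor, was higher, at 426, 485 and 534 in KO#1 libraries, against 290.2, 296 and 291 in sgControl libraries (log2 fold change 0.71, SE 0.167, limma adjusted p = 0.0232). The TFAP2A call was lost without sgControl replicate 1 or 3 (limma adjusted p 0.0581 to 0.0756). The PAX2 call was lost without any KO#1 library or sgControl replicate 1 or 3 (limma adjusted p 0.059 to 0.122). The MECOM call was lost without KO#1 replicate 2 or 3 or sgControl replicate 1 or 3 (limma adjusted p 0.0659 to 0.0941).

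Adhesion genes changed in both directions. Of 21 tested cadherins 5 were called higher and 7 lower (median −0.57), so that 57.1% of the family was called; 3 and 4 held. CDH1, or E-cadherin, the main adhesion protein of epithelia, had signals of 319, 369 and 454 in KO#1 libraries, against 6183, 3831 and 6059 in sgControl libraries (log2 fold change −3.79, SE 0.227, limma adjusted p = 3.24e-05), a ratio of sgControl to KO#1 means of 14.1. The kidney cadherin CDH16 had 38, 19.4 and 43.8 in KO#1 libraries, against 653, 181 and 369 in sgControl libraries (log2 fold change −3.42, SE 0.471, limma adjusted p = 0.00221). Higher in KO#1 were CDH13, a cadherin without a cytoplasmic tail, at 316, 576 and 528 in KO#1 libraries, against 42.7, 18.7 and 26.4 in sgControl libraries (log2 fold change 4.0, SE 0.347, limma adjusted p = 0.000233), and CDH10, a type II cadherin, at 46.9, 52.4 and 33.2 in KO#1 libraries, against 5.89, 11.1 and 8.78 in sgControl libraries (log2 fold change 2.25, SE 0.361, limma adjusted p = 0.00453). All 4 calls held with each library left out. The neural cadherin CDH2 was higher by 0.71 (SE 0.203, limma adjusted p = 0.0472), with 1496, 1553 and 1518 in KO#1 libraries, against 1057, 1106 and 685 in sgControl libraries. The CDH2 call was lost without any KO#1 library or sgControl replicate 1 or 3 (limma adjusted p 0.0868 to 0.135). Of 7 lower cadherins 3 were planar polarity receptors: CELSR1 (−1.17, SE 0.169, limma adjusted p = 0.00271), CELSR2 (−1.65, SE 0.233, limma adjusted p = 0.00246) and CELSR3 (−0.99, SE 0.197, limma adjusted p = 0.0122). The CELSR3 call was lost without sgControl replicate 1 (limma adjusted p 0.0583).

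Among 35 tested epithelial junction, keratin and polarity genes 9 were higher (25.7%) and 7 lower (20%), of which 4 and 4 held, with a median of 0.05. EPCAM, an epithelial adhesion molecule, had 43.4, 58.8 and 69.2 in KO#1 libraries, against 4.89, 4.89 and 5.0 in sgControl libraries (log2 fold change 3.27, SE 0.331, limma adjusted p = 0.000488, with 2.15 and 3.48 at pseudocounts of 10 and 0.1). The desmosomal cadherin DSC2 had 75.8, 124 and 74.8 in KO#1 and was listed at 0 in sgControl libraries (limma adjusted p = 3.65e-05). SPINT1, a membrane inhibitor of serine proteases, had 40.2, 56.1 and 100.2 in KO#1 libraries, against 3.0, 3.56 and 0 in sgControl libraries (log2 fold change 4.56, SE 0.632, limma adjusted p = 0.00226, with 2.57 and 5.87 at pseudocounts of 10 and 0.1). These 3 genes averaged 4.93, 0 and 2.19 in sgControl libraries, under the limit of 10, and passed it only through their KO#1 signal. Their calls are therefore not set against the lower CDH1. DSP, or desmoplakin, which links desmosomes to keratin, was also higher (1.18, SE 0.17, limma adjusted p = 0.0027). Lower were LLGL2, a polarity protein (−2.32, SE 0.357, limma adjusted p = 0.00361), and ELF3, an epithelial ETS factor (−2.01, SE 0.284, limma adjusted p = 0.00248). Without both libraries numbered 2, chosen after seeing the data, the list had 5 higher and 8 lower calls.

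Of 28 tested regulators and markers of the mesenchymal state 9 were higher (32.1%) and 3 lower (10.7%), of which 7 and 2 held, with a median of 0.33. SNAI2, a repressor of E-cadherin transcription, had 219, 56.1 and 202 in KO#1 and was listed at 0 in sgControl libraries (limma adjusted p = 0.000129), and TRPS1, a GATA-type repressor, had 101, 121 and 169 in KO#1 and was likewise listed at 0 in sgControl libraries (limma adjusted p = 2.06e-05). ENG, or endoglin, a co-receptor of the TGF-beta family, had 315, 299 and 430.0 in KO#1 libraries, against 14.6, 17.3 and 11.6 in sgControl libraries (log2 fold change 4.49, SE 0.263, limma adjusted p = 3e-05). The smooth muscle actin-binding protein TAGLN had 198, 133 and 231 in KO#1 libraries, against 20.1, 20.7 and 36.9 in sgControl libraries (log2 fold change 2.83, SE 0.326, limma adjusted p = 0.00095). SNAI2 and TRPS1, counted among the 9 higher members, entered the test only through their KO#1 signal, so their separation was assured. In ENG and TAGLN, measured in both groups, the KO#1 libraries also stood above every sgControl library. NT5E (CD73), which makes extracellular adenosine, SPARC and the receptor kinase AXL were higher by 2.28, 1.63 and 1.18 (limma adjusted p 0.000373, 0.00147 and 0.00221). Against this, the fibroblast markers S100A4 (−2.32, SE 0.406, limma adjusted p = 0.00687) and THY1 (−1.72, SE 0.311, limma adjusted p = 0.00786) were lower. The repressors ZEB1 and ZEB2 had log2 fold changes of −0.17 and −0.2 and did not pass the test (limma adjusted p = 0.587 and 0.549). Fibroblast marker sums, given above, were lower in KO#1; their part in these changes was not tested.

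**Figure D2:**
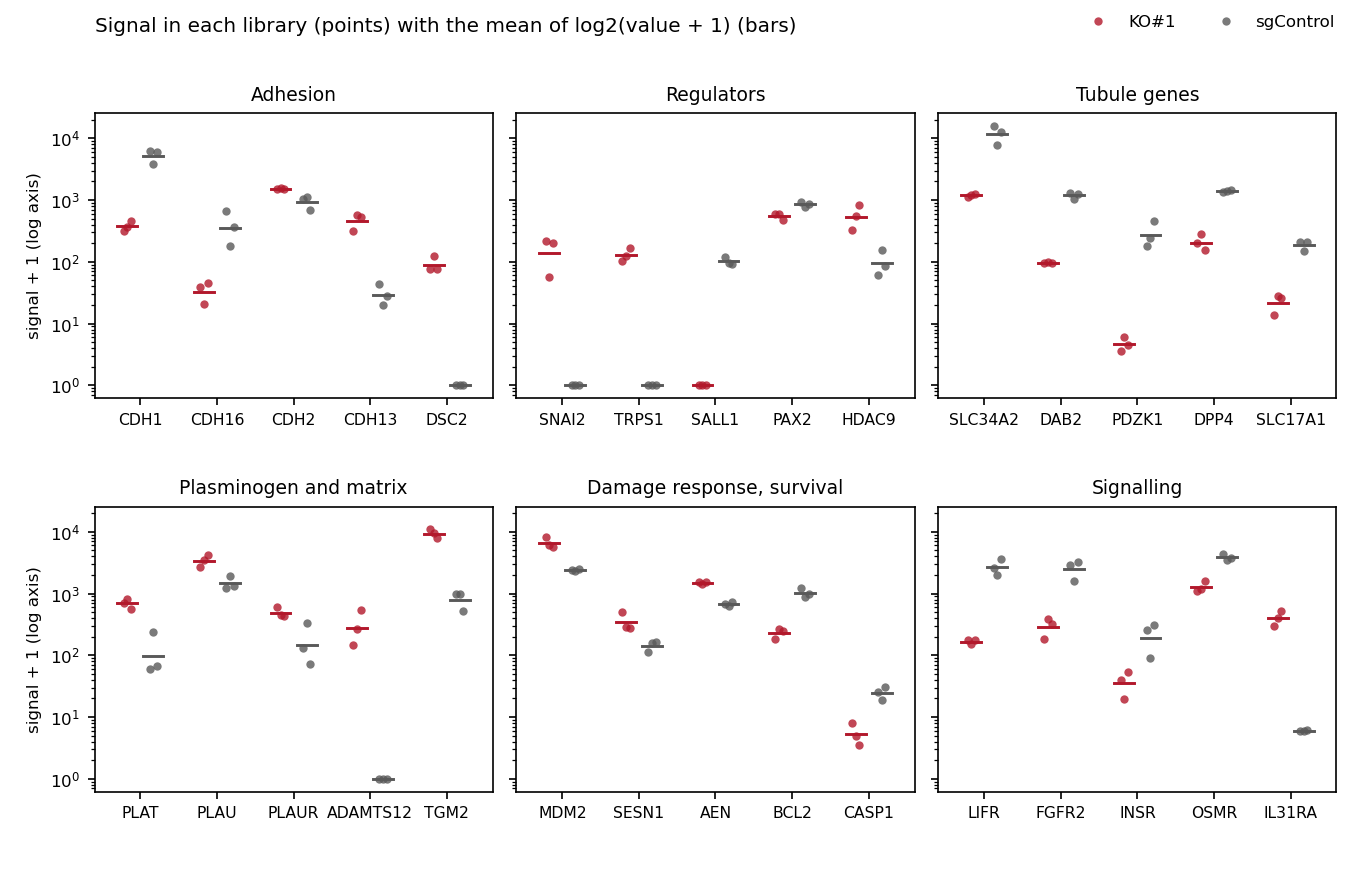
Signal + 1 (log axis) of 30 genes in the 3 KO#1 libraries (red points, left of each pair) and the 3 sgControl libraries (grey points), with bars at the mean of log2(signal + 1), in 6 panels by function. CDH1, CDH16, LIFR and FGFR2 sit lower in KO#1, and TGM2 and IL31RA higher; SNAI2, TRPS1, DSC2 and ADAMTS12 lie on the floor in sgControl and SALL1 in KO#1.

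Matrix genes split evenly. Of 54 tested collagens, laminins and other matrix proteins 9 were higher (16.7%) and 10 lower (18.5%), of which 5 and 2 held, with a median of −0.05. COL14A1, a collagen associated with fibrils, had 57.8, 43.2 and 71 in KO#1 libraries, against 3.56, 2.33 and 3.56 in sgControl libraries (log2 fold change 3.8, SE 0.362, limma adjusted p = 0.000373, with 2.34 and 4.14 at pseudocounts of 10 and 0.1). EMILIN2, an elastic fibre glycoprotein, had 95.4, 123 and 85.1 in KO#1 libraries, against 8.33, 11.2 and 7.56 in sgControl libraries (log2 fold change 3.35, SE 0.302, limma adjusted p = 0.000293). LTBP2, a protein of microfibrils, had 1728, 1636 and 1843 in KO#1 libraries, against 451, 349 and 269.6 in sgControl libraries (log2 fold change 2.31, SE 0.205, limma adjusted p = 0.000269). These were low or moderate in sgControl and higher in every KO#1 library. COL4A1, a chain of basement membrane collagen, was lower, with 4648, 7045 and 8198 in KO#1 libraries, against 13065, 14495 and 15456 in sgControl libraries (log2 fold change −1.15, SE 0.223, limma adjusted p = 0.0109), as was THBS1, or thrombospondin 1, an adhesive glycoprotein that can activate latent TGF-beta, with 19643, 18746 and 11438 in KO#1 libraries, against 32238, 36866 and 36866 in sgControl libraries (log2 fold change −1.13, SE 0.233, limma adjusted p = 0.0142). COL4A3, a chain of the glomerular basement membrane, had 2.33, 5.44 and 12.2 in KO#1 libraries, against 30.8, 32.2 and 46.4 in sgControl libraries (log2 fold change −2.49, SE 0.515, limma adjusted p = 0.0143). The THBS1 call was lost without sgControl replicate 3 (limma adjusted p 0.0517). The COL4A3 call was lost without sgControl replicate 1 or 3 (limma adjusted p 0.0549 to 0.0599). With the chromosome medians removed, chosen after seeing the data, 6 members were higher and 10 lower.

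Among 50 tested matrix proteases, their inhibitors and plasminogen activation genes 14 were higher (28%) and 10 lower (20%), of which 7 and 6 held, with a median of 0.19. Both plasminogen activators were higher: PLAU (urokinase) had 2698, 3460.4 and 4246 in KO#1 libraries, against 1246, 1903 and 1310.4 in sgControl libraries (log2 fold change 1.22, SE 0.227, limma adjusted p = 0.00878). PLAT (tissue plasminogen activator) had 706, 824 and 563 in KO#1 libraries, against 59.9, 239.6 and 65.3 in sgControl libraries (log2 fold change 2.8, SE 0.473, limma adjusted p = 0.00575). The urokinase receptor PLAUR had 604, 447 and 438 in KO#1 libraries, against 129, 335 and 69.9 in sgControl libraries (log2 fold change 1.75, SE 0.479, limma adjusted p = 0.0413). The PLAUR call was lost without any KO#1 library or sgControl replicate 1 or 3 (limma adjusted p 0.0611 to 0.145). ADAMTS12, a secreted metalloprotease, had 144, 263 and 536 in KO#1 and was listed at 0 in sgControl libraries (limma adjusted p = 3.21e-05). TIMP4, a metalloprotease inhibitor, had 36.7, 15.6 and 26.6 in KO#1 libraries, against 0, 0 and 1.56 in sgControl libraries (log2 fold change 4.24, SE 0.564, limma adjusted p = 0.00191, with 1.75 and 6.61 at pseudocounts of 10 and 0.1). TIMP4 averaged under 10 without KO#1 replicate 1 and was then not tested. The lower group was led by MMP28, a matrix metalloprotease of epithelia, at 5.67, 7.56 and 4.89 in KO#1 libraries, against 78.7, 88.7 and 189 in sgControl libraries (log2 fold change −3.99, SE 0.394, limma adjusted p = 0.000428). MMP7 (−3.28, SE 0.552, limma adjusted p = 0.00561, with −1.57 and −3.98 at pseudocounts of 10 and 0.1) and the lysosomal cysteine protease CTSS (−3.1, SE 0.456, limma adjusted p = 0.00295, with −1.79 and −3.42 at pseudocounts of 10 and 0.1) were also lower. MMP7 averaged under 10 without sgControl replicate 1 and was then not tested.

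Integrins and tetraspanins, which organise adhesion to the matrix, had 8 higher and 8 lower members of 36 tested (22.2% each), of which 2 and 5 held. ITGA11, a collagen receptor chain, had 90, 28.7 and 85.1 in KO#1 libraries, against 4.89, 4.89 and 5.11 in sgControl libraries (log2 fold change 3.37, SE 0.465, limma adjusted p = 0.00222, with 2.26 and 3.58 at pseudocounts of 10 and 0.1), while ITGB6, the chain of the TGF-beta-activating epithelial integrin, had 134, 215 and 299 in KO#1 libraries, against 1716, 823 and 1124 in sgControl libraries (log2 fold change −2.5, SE 0.339, limma adjusted p = 0.00207). The tetraspanin TSPAN15 had 52.4, 47.9 and 58.1 in KO#1 libraries, against 457, 312 and 280.4 in sgControl libraries (log2 fold change −2.68, SE 0.241, limma adjusted p = 0.000291). ITGA10, another collagen receptor chain, was higher at 23.8, 18 and 18.2 in KO#1 libraries, against 3.56, 3.11 and 1.0 in sgControl libraries (log2 fold change 2.64, SE 0.461, limma adjusted p = 0.00685, with 1.26 and 3.09 at pseudocounts of 10 and 0.1). ITGA10 averaged under 10 without any KO#1 library and was then not tested. Guidance genes, which steer migrating cells and axons, were called lower in 11 of 47 (23.4%) and higher in 5 (10.6%), of which 5 and 3 held, with a median of −0.19. The ephrin receptor EPHB1 had 20.1, 17.1 and 45.4 in KO#1 libraries, against 589.6, 566 and 624 in sgControl libraries (log2 fold change −4.51, SE 0.342, limma adjusted p = 0.000122). EPHA4 had 3.11, 4.0 and 1.0 in KO#1 libraries, against 40.9, 36 and 23.3 in sgControl libraries (log2 fold change −3.28, SE 0.471, limma adjusted p = 0.00268, with −1.76 and −3.74 at pseudocounts of 10 and 0.1). EFNB2, an ephrin ligand, was higher, with 276, 102 and 103 in KO#1 libraries, against 17.9, 22.4 and 5.0 in sgControl libraries (log2 fold change 3.37, SE 0.573, limma adjusted p = 0.00591). SEMA5A, a semaphorin, was lower by 3.16 (limma adjusted p = 0.00041). Another ephrin ligand, EFNA2, was called lower, so the called ephrin ligands went both ways. NTN1 (netrin 1) was higher, with 544, 1053 and 513 in KO#1 libraries, against 106, 186 and 75 in sgControl libraries (log2 fold change 2.54, SE 0.375, limma adjusted p = 0.003), together with its receptor UNC5B (2.75, SE 0.621, limma adjusted p = 0.0202). The UNC5B call was lost without KO#1 replicate 1 or 3 or sgControl replicate 1 (limma adjusted p 0.0554 to 0.084).

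Receptor tyrosine kinases and their ligands had 7 higher and 6 lower members of 49 (14.3% and 12.2%; median −0.18), of which 4 and 3 held. FGFR2, a fibroblast growth factor receptor of epithelia, had 182, 385 and 319.6 in KO#1 libraries, against 2855, 1614 and 3248 in sgControl libraries (log2 fold change −3.12, SE 0.333, limma adjusted p = 0.000643). The insulin receptor INSR had 39.2, 18.8 and 53.4 in KO#1 libraries, against 255, 87.9 and 305 in sgControl libraries (log2 fold change −2.44, SE 0.518, limma adjusted p = 0.0155). FGFBP1, a carrier that releases fibroblast growth factors from the matrix, was higher, with 27.8, 26 and 35.9 in KO#1 libraries, against 1.0, 0 and 1.0 in sgControl libraries (log2 fold change 4.27, SE 0.465, limma adjusted p = 0.00071, with 1.9 and 5.91 at pseudocounts of 10 and 0.1), as was ROR2, a receptor for WNT5A, with 35.9, 50.9 and 42.8 in KO#1 libraries, against 8.89, 0.778 and 0 in sgControl libraries (log2 fold change 4.07, SE 0.761, limma adjusted p = 0.00906, with 2.06 and 5.54 at pseudocounts of 10 and 0.1). EREG, a ligand of the EGF receptor family, was higher by 1.52 (limma adjusted p = 0.00739). The INSR call was lost without KO#1 replicate 1 or sgControl replicate 1 or 3 (limma adjusted p 0.0516 to 0.0806).

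Of 33 WNT genes 2 were higher and 4 lower (18.2% called, beside 14.7% of all tested features), of which 1 and 2 held. Of 54 TGF-beta, BMP, activin and Notch genes 5 were higher and 7 lower (22.2% called), of which 1 and 4 held. The frizzled receptor FZD3 had 105, 106 and 89.1 in KO#1 libraries, against 23.2, 7.33 and 28 in sgControl libraries (log2 fold change 2.48, SE 0.453, limma adjusted p = 0.00823). The secreted WNT antagonist DKK1 had 358, 145 and 222 in KO#1 libraries, against 92.7, 69.6 and 54.4 in sgControl libraries (log2 fold change 1.67, SE 0.347, limma adjusted p = 0.0146). NKD2, an intracellular WNT antagonist, had 15.4, 15.4 and 19.6 in KO#1 libraries, against 98.2, 72 and 105 in sgControl libraries (log2 fold change −2.37, SE 0.282, limma adjusted p = 0.00106). The WNT effector TCF7L1 had 32.4, 42.8 and 58.9 in KO#1 libraries, against 225, 116 and 200.4 in sgControl libraries (log2 fold change −1.97, SE 0.328, limma adjusted p = 0.00534). Among these 4 genes the receptor and the secreted antagonist were higher, the intracellular antagonist and the effector lower. They do not describe the WNT list, whose called share was near that of all tested features. NOG (noggin), which binds and blocks BMPs, had 153, 153 and 265 in KO#1 libraries, against 32.2, 68.8 and 28.4 in sgControl libraries (log2 fold change 2.18, SE 0.376, limma adjusted p = 0.0065). ID2, a BMP target, had 118, 49.1 and 24.7 in KO#1 libraries, against 335, 298 and 361 in sgControl libraries (log2 fold change −2.63, SE 0.472, limma adjusted p = 0.00769). BAMBI, a pseudoreceptor of the TGF-beta family, was higher at 76.3, 17.9 and 15.3 in KO#1 libraries, against 2.22, 4.56 and 4.89 in sgControl libraries (log2 fold change 2.61, SE 0.62, limma adjusted p = 0.0246, with 1.51 and 2.87 at pseudocounts of 10 and 0.1), and the Notch family target HES2 lower at 39.9, 21.6 and 22.3 in KO#1 libraries, against 148, 74.8 and 78.1 in sgControl libraries (log2 fold change −1.79, SE 0.366, limma adjusted p = 0.0135). The DKK1 call was lost without sgControl replicate 3 (limma adjusted p 0.0566). The BAMBI call was lost without sgControl replicate 1 or 3 (limma adjusted p 0.0564 to 0.101). BAMBI averaged under 10 without KO#1 replicate 1 and was then not tested. The HES2 call was lost without sgControl replicate 1 (limma adjusted p 0.0582).

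Cytokine receptors and STAT genes were more often lower. Of 59 tested members 10 were lower (16.9%) and 2 higher (3.39%), of which 4 and 1 held, with a median of −0.10. LIFR, which pairs with gp130 to signal for leukaemia inhibitory factor, had 176, 151 and 172 in KO#1 libraries, against 2617, 2016 and 3645 in sgControl libraries (log2 fold change −4.0, SE 0.225, limma adjusted p = 2.3e-05). OSMR, the oncostatin M receptor chain, had 1089.9, 1178 and 1567 in KO#1 libraries, against 4367, 3518 and 3771 in sgControl libraries (log2 fold change −1.62, SE 0.183, limma adjusted p = 0.000874). The gp130 gene IL6ST itself had 702, 797 and 829 in KO#1 libraries, against 1161, 935 and 950.4 in sgControl libraries and did not pass (log2 fold change −0.38, SE 0.163, limma adjusted p = 0.155). IL31RA, whose partner chain is OSMR, was higher, with 301, 395 and 519 in KO#1 libraries, against 4.89, 4.89 and 5.11 in sgControl libraries (log2 fold change 6.05, SE 0.281, limma adjusted p = 1.16e-05, with 4.76 and 6.29 at pseudocounts of 10 and 0.1). BCL3, an NF-kB regulator and STAT3 target, had 197, 62.2 and 111 in KO#1 libraries, against 744, 220.2 and 601 in sgControl libraries (log2 fold change −2.05, SE 0.512, limma adjusted p = 0.0298). The BCL3 call was lost without KO#1 replicate 2 or 3 or sgControl replicate 1 or 3 (limma adjusted p 0.0609 to 0.127). IL11, a cytokine of the same family, had 22, 10.9 and 28.7 in KO#1 libraries, against 3.56, 2.44 and 5.11 in sgControl libraries (log2 fold change 2.13, SE 0.477, limma adjusted p = 0.0193, with 1.11 and 2.39 at pseudocounts of 10 and 0.1). The IL11 call was lost without KO#1 replicate 1 or sgControl replicate 1 (limma adjusted p 0.0685 to 0.0769). IL11 averaged under 10 without KO#1 replicate 3 and was then not tested. Without both libraries numbered 2 the list had 6 higher and 11 lower calls.

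Of 31 chemokines and NF-kB targets 5 were lower (16.1%) and 1 higher (3.23%), of which 2 and 0 held, with a median of 0.20. The monocyte attractant CCL2 had 12.7, 4.0 and 5.89 in KO#1 libraries, against 302, 323 and 391 in sgControl libraries (log2 fold change −5.44, SE 0.378, limma adjusted p = 7.39e-05), a ratio of sgControl to KO#1 means of 45.1. The mucosal chemokine CCL28 had 78.9, 67.9 and 62.1 in KO#1 libraries, against 204, 214 and 171 in sgControl libraries (log2 fold change −1.48, SE 0.214, limma adjusted p = 0.00273). The chemokine receptor CXCR4 had 0, 0.444 and 1.0 in KO#1 libraries, against 9.67, 83.9 and 35.2 in sgControl libraries (log2 fold change −4.49, SE 0.734, limma adjusted p = 0.00498, with −2.06 and −6.29 at pseudocounts of 10 and 0.1). IRAK2, a kinase downstream of interleukin-1 and Toll-like receptors, was higher, at 843, 533 and 1138 in KO#1 libraries, against 350.4, 348 and 241 in sgControl libraries (log2 fold change 1.37, SE 0.287, limma adjusted p = 0.0147). CXCR4 averaged under 10 without sgControl replicate 2 and was then not tested. The IRAK2 call was lost without KO#1 replicate 1 or sgControl replicate 1 or 3 (limma adjusted p 0.05 to 0.0613). Leaving out both libraries numbered 2 gave 11 higher and 4 lower calls in this list, so the balance of its calls rested on those libraries. The median stayed positive, at 0.44. Interferon-stimulated genes had 2 higher and 3 lower of 49 (4.08% and 6.12%), below the 7.0% and 7.69% of all tested features. Their median was 0.02, and 0 and 1 of these calls held. MHC class I genes had 1 higher (3.70%) and 0 lower of 27 by limma. At an unadjusted p under 0.05 their counts were 5 and 0, and their median was 0.20. CD274 (PD-L1), a checkpoint ligand placed in that list, had 26.9, 21.4 and 41.2 in KO#1 libraries, against 2.33, 11.1 and 6.11 in sgControl libraries (log2 fold change 2.17, SE 0.521, limma adjusted p = 0.0252). The CD274 call was lost without KO#1 replicate 1 or 3 or sgControl replicate 1 or 3 (limma adjusted p 0.0656 to 0.0905). Among 24 acute phase, complement and coagulation genes 4 were higher (16.7%) and 5 lower (20.8%), of which 2 and 3 held. Thrombomodulin (THBD), an anticoagulant receptor, had 65.6, 27.8 and 49 in KO#1 libraries, against 3.0, 0 and 0 in sgControl libraries (log2 fold change 4.85, SE 0.631, limma adjusted p = 0.00172, with 2.34 and 7.16 at pseudocounts of 10 and 0.1). The thrombin receptor F2R had 109, 121 and 160.2 in KO#1 libraries, against 41, 17.9 and 24.4 in sgControl libraries (log2 fold change 2.25, SE 0.338, limma adjusted p = 0.00326).

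Retinoid and vitamin D genes had 3 higher and 3 lower of 21 (14.3% each), and all 6 calls held. The retinal dehydrogenases went opposite ways, with ALDH1A3 at 1120.2, 404 and 796 in KO#1 libraries, against 244, 188 and 211 in sgControl libraries (log2 fold change 1.74, SE 0.336, limma adjusted p = 0.0107) and ALDH1A1 at 875, 614 and 815 in KO#1 libraries, against 4098, 5058 and 5564 in sgControl libraries (log2 fold change −2.68, SE 0.193, limma adjusted p = 9.41e-05). The vitamin D receptor VDR had 439, 192 and 385 in KO#1 libraries, against 89.2, 99.6 and 99.3 in sgControl libraries (log2 fold change 1.72, SE 0.306, limma adjusted p = 0.0074). Its target CYP24A1, which degrades active vitamin D, had 58.3, 54.8 and 88.3 in KO#1 and was listed at 0 in sgControl libraries (limma adjusted p = 5.98e-05).

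Of 42 steroid and xenobiotic genes 7 were lower (16.7%) and 4 higher (9.52%), of which 4 and 1 held, with a median of −0.21. CBR1, a carbonyl reductase, had 1.44, 1.44 and 0 in KO#1 libraries, against 71.9, 108 and 106 in sgControl libraries (log2 fold change −5.71, SE 0.459, limma adjusted p = 0.000163, with −3.25 and −7.24 at pseudocounts of 10 and 0.1). The glutathione transferase GSTM4 had 13.7, 12.7 and 6.67 in KO#1 libraries, against 90.9, 93.1 and 102 in sgControl libraries (log2 fold change −3.06, SE 0.33, limma adjusted p = 0.000662); both were several times lower in every KO#1 library. NRF2 targets and redox genes had 4 calls in each direction of 41 (9.76% each), of which 0 and 1 (higher and lower) held. NFE2L2, which encodes NRF2, had 1517, 1851 and 1932 in KO#1 libraries, against 3765, 3105 and 3847 in sgControl libraries (log2 fold change −1.02, SE 0.167, limma adjusted p = 0.00511), and its repressor KEAP1 was lower as well (−0.86, SE 0.18, limma adjusted p = 0.015). The KEAP1 call was lost without KO#1 replicate 3 or sgControl replicate 1 or 3 (limma adjusted p 0.0544 to 0.0661). GSTM4 belongs to a family of near-identical genes, whose reads the counting may have split.

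Solute carriers of amino acids, sugars and organic ions had 8 higher and 7 lower of 57 (14% and 12.3%; median −0.09; 5 and 3 held). Both chains of the large neutral amino acid exchanger were higher: SLC7A5 (LAT1) had 18746, 32238 and 20308 in KO#1 libraries, against 5786, 8156 and 9439 in sgControl libraries (log2 fold change 1.59, SE 0.261, limma adjusted p = 0.00502). Its partner SLC3A2 had 3987, 5011 and 3575 in KO#1 libraries, against 1105, 1699.7 and 1876 in sgControl libraries (log2 fold change 1.45, SE 0.229, limma adjusted p = 0.00426). The cationic amino acid carrier SLC7A2 had 240.1, 333 and 259 in KO#1 libraries, against 11.8, 10 and 17 in sgControl libraries (log2 fold change 4.34, SE 0.281, limma adjusted p = 5.19e-05).

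Ion channels, pumps and gap junction genes had 12 lower (19%) and 6 higher (9.52%) of 63 (7 and 4 held), with a median of −0.27. The T-type calcium channel CACNA1H had 20.1, 12.6 and 35.1 in KO#1 libraries, against 518, 189 and 654 in sgControl libraries (log2 fold change −4.2, SE 0.502, limma adjusted p = 0.00108). The sodium channel SCN9A had 117, 99.7 and 139 in KO#1 libraries, against 1464, 755 and 1219 in sgControl libraries (log2 fold change −3.22, SE 0.263, limma adjusted p = 0.000167). KCNN4, a calcium-activated potassium channel, was higher, with 299.7, 213 and 243 in KO#1 libraries, against 9.89, 26.3 and 16.4 in sgControl libraries (log2 fold change 3.86, SE 0.352, limma adjusted p = 0.000301), as was ANO4, of the anoctamin family, with 23.3, 53 and 43 in KO#1 libraries, against 0.778, 1.44 and 0 in sgControl libraries (log2 fold change 4.57, SE 0.514, limma adjusted p = 0.000843, with 2.17 and 6.2 at pseudocounts of 10 and 0.1). KCNJ2, an inward rectifier, had 37.4, 21.7 and 17 in KO#1 and was listed at 0 in sgControl libraries (limma adjusted p = 0.000595). KCNJ2 averaged under 10 without KO#1 replicate 1 and was then not tested. Of 76 G protein-coupled receptor, cyclic AMP and endothelin genes 14 were lower (18.4%) and 9 higher (11.8%), of which 7 and 4 held. VIPR1, a receptor for vasoactive intestinal peptide, had 38.6, 36 and 17.9 in KO#1 libraries, against 0, 1.78 and 0 in sgControl libraries (log2 fold change 4.43, SE 0.57, limma adjusted p = 0.00162, with 1.91 and 6.78 at pseudocounts of 10 and 0.1). EDN2 (endothelin 2), a vasoconstrictor peptide, had 82, 156 and 146 in KO#1 libraries, against 1857, 1179.9 and 2090.0 in sgControl libraries (log2 fold change −3.74, SE 0.299, limma adjusted p = 0.000161). PDE4D, which degrades cyclic AMP, had 102, 148 and 156 in KO#1 libraries, against 539, 459 and 419.7 in sgControl libraries (log2 fold change −1.81, SE 0.221, limma adjusted p = 0.00121).

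Small GTPases, their regulators and actin regulators had 10 higher and 14 lower of 101 (9.90% and 13.9%; median 0.07; 6 and 8 held), and 17 higher and 16 lower without both libraries numbered 2. The exchange factors for Rac went opposite ways: TIAM1 had 289, 282 and 327 in KO#1 libraries, against 70.2, 64.3 and 34.4 in sgControl libraries (log2 fold change 2.45, SE 0.288, limma adjusted p = 0.00101). VAV3 had 29.4, 99 and 57.4 in KO#1 libraries, against 497, 440.4 and 569.9 in sgControl libraries (log2 fold change −3.15, SE 0.385, limma adjusted p = 0.0012). ARHGAP42, a GTPase-activating protein, had 179, 172 and 182 in KO#1 libraries, against 24.3, 14.9 and 39.2 in sgControl libraries (log2 fold change 2.82, SE 0.34, limma adjusted p = 0.00115). The small GTPase RHOB had 973, 789 and 1008 in KO#1 libraries, against 6148, 4590.0 and 4459 in sgControl libraries (log2 fold change −2.45, SE 0.184, limma adjusted p = 0.000122). FLNC, a filamin that cross-links actin, had 15791, 15456 and 12329 in KO#1 libraries, against 7715, 9749 and 7715 in sgControl libraries (log2 fold change 0.79, SE 0.18, limma adjusted p = 0.0211). CAV1, the coat protein of caveolae, had 13293, 11235 and 13293 in KO#1 libraries, against 18746, 20758 and 20758 in sgControl libraries (log2 fold change −0.67, SE 0.162, limma adjusted p = 0.0256). The FLNC call was lost without KO#1 replicate 1 or 2 or sgControl replicate 1 or 3 (limma adjusted p 0.0515 to 0.0857). The CAV1 call was lost without any KO#1 library or sgControl replicate 1 or 3 (limma adjusted p 0.0552 to 0.0853). Cilia genes had 5 higher and 6 lower of 65 (7.69% and 9.23%), near the 7.0% and 7.69% of all tested features. Of these calls 3 and 2 held. KIF7, a ciliary kinesin of the hedgehog pathway, had 192, 87.9 and 125 in KO#1 libraries, against 11.2, 6.44 and 6.44 in sgControl libraries (log2 fold change 3.88, SE 0.374, limma adjusted p = 0.000391). The hedgehog effector GLI1 had 7.33, 16.2 and 19.4 in KO#1 libraries, against 137, 67 and 153 in sgControl libraries (log2 fold change −2.98, SE 0.441, limma adjusted p = 0.003). The motile cilium dynein DNAH11 was lower, with 3.11, 17.1 and 8.67 in KO#1 libraries, against 90.8, 115 and 85.8 in sgControl libraries (log2 fold change −3.44, SE 0.503, limma adjusted p = 0.00289), where HYDIN, of the same organelle, was the reverse.

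Annexins, ferlins, S100 and other calcium-binding proteins had 7 higher (18.4%) and 10 lower (26.3%) of 38, of which 5 and 5 held. DYSF (dysferlin), a membrane repair protein, had 2059, 1348 and 3332 in KO#1 libraries, against 14.6, 11.8 and 20.7 in sgControl libraries (log2 fold change 7.01, SE 0.342, limma adjusted p = 1.16e-05). PADI2, which converts arginine to citrulline, had 6738, 4082 and 5391 in KO#1 libraries, against 247, 227 and 240.1 in sgControl libraries (log2 fold change 4.47, SE 0.199, limma adjusted p = 1.03e-05). S100A1, a calcium sensor of muscle, had 1.0, 4.33 and 3.56 in KO#1 libraries, against 102, 76.6 and 90.8 in sgControl libraries (log2 fold change −4.63, SE 0.432, limma adjusted p = 0.000337, with −2.95 and −5.1 at pseudocounts of 10 and 0.1). Of the S100 genes 5 were lower and 1, S100A2, was higher (1.25, SE 0.206, limma adjusted p = 0.00521). Lysosomal genes had 8 higher and 4 lower of 65 (12.3% and 6.15%; 4 and 2 held). FUCA2, a fucosidase, had 524, 383 and 444 in KO#1 libraries, against 21.4, 9.67 and 10 in sgControl libraries (log2 fold change 5.02, SE 0.328, limma adjusted p = 5.37e-05). The membrane protein LAMP3 had 290.2, 65.3 and 184 in KO#1 libraries, against 18.1, 15.3 and 34 in sgControl libraries (log2 fold change 2.78, SE 0.531, limma adjusted p = 0.00993). MITF, a factor that drives lysosomal genes, was lower at 189, 396 and 268 in KO#1 libraries, against 502, 746 and 707 in sgControl libraries (log2 fold change −1.24, SE 0.283, limma adjusted p = 0.0214). The LAMP3 call was lost without sgControl replicate 1 (limma adjusted p 0.0544). The MITF call was lost without KO#1 replicate 1 or 3 or sgControl replicate 3 (limma adjusted p 0.0611 to 0.0775).

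Glycolysis and hypoxia genes were more often higher. Of 57 tested members 10 were higher (17.5%) and 3 lower (5.26%), of which 4 and 0 held, with a median of 0.15. PKM, the pyruvate kinase of the last step of glycolysis, had 34409.7, 46927 and 27475 in KO#1 libraries, against 14078, 16267 and 12769 in sgControl libraries (log2 fold change 1.31, SE 0.226, limma adjusted p = 0.0065). ANGPTL4, a lipoprotein lipase inhibitor induced by hypoxia, had 275, 301 and 352 in KO#1 libraries, against 108, 89 and 106 in sgControl libraries (log2 fold change 1.61, SE 0.199, limma adjusted p = 0.00129). The secreted glycoprotein STC2 had 551, 523 and 841 in KO#1 libraries, against 153, 251 and 227 in sgControl libraries (log2 fold change 1.59, SE 0.258, limma adjusted p = 0.00479). HIF1A, the oxygen-regulated factor itself, was lower by 0.65 (limma adjusted p = 0.0261). The other lower calls of this list were NDRG1 and BHLHE40. The HIF1A call was lost without any KO#1 library or sgControl replicate 1 or 3 (limma adjusted p 0.0518 to 0.101). The hypoxia-induced repressor BHLHE41 was higher, at 54.8, 27.1 and 56.9 in KO#1 libraries, against 5.89, 7.89 and 16.1 in sgControl libraries (log2 fold change 2.15, SE 0.454, limma adjusted p = 0.0155). The BHLHE41 call was lost without KO#1 replicate 1 or 3 or sgControl replicate 1 (limma adjusted p 0.0602 to 0.0686). Of 73 nuclear-encoded respiratory chain genes 3 were higher and 5 lower (4.11% and 6.85%; median 0.10; 2 and 1 held), shares at or below those of all tested features. SDHA, a subunit of complex II, had 902, 1182 and 917 in KO#1 libraries, against 2149, 3962 and 1937 in sgControl libraries (log2 fold change −1.36, SE 0.269, limma adjusted p = 0.012). NDUFS6, of complex I, had 230.3, 188 and 254 in KO#1 libraries, against 502, 503 and 525 in sgControl libraries (log2 fold change −1.19, SE 0.179, limma adjusted p = 0.00323). The SDHA call was lost without KO#1 replicate 1 (limma adjusted p 0.0547). Of 13 mitochondrial messenger RNAs 2 were called, both lower: MT-ND1 with 29347, 26237 and 42707 in KO#1 libraries, against 63809, 55499 and 51854 in sgControl libraries (log2 fold change −0.83, SE 0.226, limma adjusted p = 0.0417) and MT-ND2 with 16546, 16267 and 24413 in KO#1 libraries, against 38601, 34409.7 and 29347 in sgControl libraries (log2 fold change −0.86, SE 0.216, limma adjusted p = 0.0311). The MT-ND1 call was lost without KO#1 replicate 1 or 2 or sgControl replicate 1 or 3 (limma adjusted p 0.0802 to 0.153). The MT-ND2 call was lost without KO#1 replicate 1 or 2 or sgControl replicate 1 or 3 (limma adjusted p 0.0533 to 0.126).

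Of 76 ribosomal protein genes 5 were higher and 2 lower (6.58% and 2.63%; median 0.04; 2 and 0 held). Higher members included RPL4 and RPLP1 on chromosome 15, RPS20 on chromosome 8 and RPS21 on chromosome 20, and with chromosome medians removed 0 were called in either direction by limma. Genes of the unfolded protein response and ATF4 had 5 higher and 2 lower of 63 (7.94% and 3.17%; 3 and 2 held), with a median of 0.37, and 16 higher and 2 lower without both libraries numbered 2. NUPR1, a stress-induced chromatin protein, had 21.3, 19.8 and 29.6 in KO#1 libraries, against 347, 269.6 and 628 in sgControl libraries (log2 fold change −4.01, SE 0.335, limma adjusted p = 0.000188), against the direction of SLC7A5, SLC3A2 and STC2, which that list shares with those above.

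Cell division genes tracked the library number. The summed signal of the mitosis list was 19798, 106591 and 29700 in the KO#1 libraries and 32964, 106751 and 33901 in the sgControl libraries, so the library numbered 2 was the high one in both groups. The numbers are places in sample order and state no pairing. Of 70 tested members 0 were called by limma, and the median was −0.34. At an unadjusted p under 0.05 the count was 0 as well. The centromeric histone CENPA had 20.1, 245 and 38.1 in KO#1 libraries, against 109, 346 and 117 in sgControl libraries (log2 fold change −1.49, SE 0.825, limma adjusted p = 0.27). FOXM1, which drives mitotic genes, had 191, 919 and 243 in KO#1 libraries, against 530.3, 1104 and 435 in sgControl libraries (log2 fold change −0.86, SE 0.566, limma adjusted p = 0.357). Both passed without KO#1 replicate 2 (limma adjusted p = 0.0153 for CENPA and 0.028 for FOXM1) and without both libraries numbered 2 (0.00804 and 0.0108). With both left out 8 members were called lower and 0 higher, with a median of −0.49. DNA replication and G1/S genes had 4 higher and 2 lower of 75 (5.33% and 2.67%), below the 7.0% and 7.69% of all tested features. Their median was 0.18, and 0 and 1 of these calls held. PCNA, the sliding clamp of DNA polymerase, had 2658, 2987 and 1614 in KO#1 libraries, against 937, 1604 and 933 in sgControl libraries (log2 fold change 1.06, SE 0.287, limma adjusted p = 0.0396). The cell cycle inhibitor CDKN1B had 670.3, 597 and 585 in KO#1 libraries, against 1245, 1048 and 1195 in sgControl libraries (log2 fold change −0.91, SE 0.155, limma adjusted p = 0.00601). E2F7, an E2F repressor, had 1309, 1054 and 714 in KO#1 libraries, against 265, 642 and 189 in sgControl libraries (log2 fold change 1.64, SE 0.419, limma adjusted p = 0.032). The PCNA call was lost without KO#1 replicate 1 or 2 or sgControl replicate 1 or 3 (limma adjusted p 0.0943 to 0.15). The E2F7 call was lost without KO#1 replicate 1 or 2 or sgControl replicate 1 or 3 (limma adjusted p 0.0608 to 0.129). PCNA lies on chromosome 20, and with chromosome medians removed 1 member was higher and 1 lower.

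**Figure D3:**
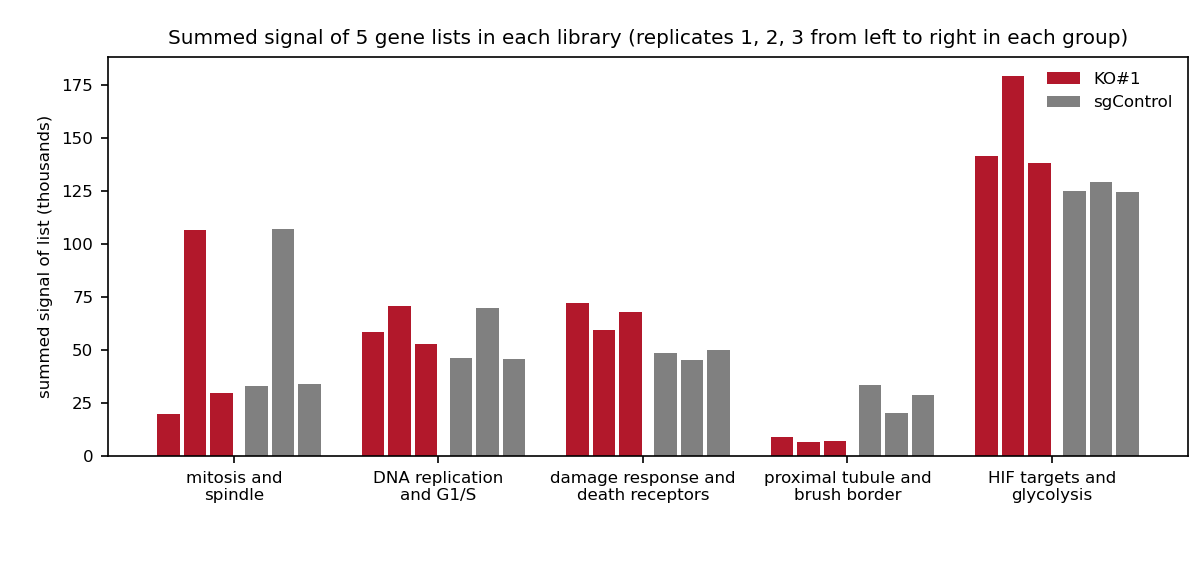
Summed signal of 5 gene lists in each KO#1 library (red) and each sgControl library (grey), replicates 1, 2 and 3 from left to right. The mitosis sum reaches 106591 in KO#1 replicate 2 and 106751 in sgControl replicate 2 and is at most 33901 in the other 4, while the proximal tubule sum is 6491 to 8863 in KO#1 and 20389 to 33669 in sgControl libraries.

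Genes of the DNA damage response, the BCL2 family and death receptors were more often higher than lower. Of 75 tested members 16 were higher (21.3%) and 3 lower (4.0%), of which 6 and 1 held, with a median of 0.41. MDM2, a ubiquitin ligase induced by DNA damage, had 8090.4, 6220.3 and 5689 in KO#1 libraries, against 2412, 2289.6 and 2461 in sgControl libraries (log2 fold change 1.47, SE 0.172, limma adjusted p = 0.00101). The damage-induced nuclease AEN had 1511, 1410.0 and 1515 in KO#1 libraries, against 671, 629 and 732 in sgControl libraries (log2 fold change 1.13, SE 0.147, limma adjusted p = 0.00176). The sestrin SESN1, a stress-induced regulator of mTORC1, had 510.4, 284 and 270.3 in KO#1 libraries, against 112, 158 and 161 in sgControl libraries (log2 fold change 1.25, SE 0.284, limma adjusted p = 0.0204). Its relative SESN2 had 905, 678 and 1169.6 in KO#1 libraries, against 531, 358 and 458 in sgControl libraries (log2 fold change 1.01, SE 0.238, limma adjusted p = 0.0233). The TRAIL receptors TNFRSF10A (1.1, SE 0.18, limma adjusted p = 0.00489) and TNFRSF10B (0.98, SE 0.157, limma adjusted p = 0.00465) and the decoy receptor TNFRSF6B, at 155, 96 and 203 in KO#1 libraries, against 25.4, 46.9 and 26.1 in sgControl libraries (log2 fold change 2.16, SE 0.357, limma adjusted p = 0.00514), were higher too. CDKN1A (p21), a cell cycle inhibitor, had 6304, 3365 and 4590.0 in KO#1 libraries, against 2353, 2231 and 3326 in sgControl libraries and missed the threshold (log2 fold change 0.83, SE 0.253, limma adjusted p = 0.0609). CDKN1A passed without KO#1 replicate 2 (limma adjusted p = 0.0233), without both libraries numbered 2 (0.0216) and with GC content smoothed out (0.0399). BCL2, which protects cells from apoptosis, was lower, with 180.1, 265 and 247 in KO#1 libraries, against 1243, 865 and 997 in sgControl libraries (log2 fold change −2.16, SE 0.214, limma adjusted p = 0.000428), and so was CASP1, the inflammasome protease, with 7.0, 4.0 and 2.56 in KO#1 libraries, against 24.4, 17.9 and 29.3 in sgControl libraries (log2 fold change −2.23, SE 0.436, limma adjusted p = 0.0113, with −1.22 and −2.46 at pseudocounts of 10 and 0.1). TNFRSF9, a costimulatory receptor, had 31.7, 22.1 and 34 in KO#1 libraries, against 0, 17 and 0 in sgControl libraries (log2 fold change 3.51, SE 1.01, limma adjusted p = 0.0499). The SESN1 call was lost without KO#1 replicate 1 or sgControl replicate 1 (limma adjusted p 0.0561 to 0.0874). The SESN2 call was lost without KO#1 replicate 1 or 3 or sgControl replicate 3 (limma adjusted p 0.0679 to 0.0788). The CASP1 call was lost without sgControl replicate 1 or 3 (limma adjusted p 0.053 to 0.0549). The TNFRSF9 call was lost without any KO#1 library or sgControl replicate 1 or 3 (limma adjusted p 0.0699 to 0.181). The list's summed signal was 59448 to 71893 in KO#1 and 45108 to 49952 in sgControl libraries. AEN and RPS27L lie on chromosome 15, the TNFRSF10 genes on 8 and TNFRSF6B and BCL2L1 on 20, and with chromosome medians removed 11 members were higher and 3 lower, with a median of 0.38.

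Of 61 tested transcription factors of other lineages 14 were higher (23%) and 12 lower (19.7%), of which 2 and 4 held, with a median of −0.05. NR1H4 (FXR), the bile acid receptor, had 5.67, 2.44 and 7.89 in KO#1 libraries, against 101, 52.4 and 116 in sgControl libraries (log2 fold change −3.87, SE 0.461, limma adjusted p = 0.00107). ETV1, an ETS factor downstream of growth factor signalling, had 141, 178 and 149 in KO#1 libraries, against 33.2, 48.8 and 14.7 in sgControl libraries (log2 fold change 2.39, SE 0.401, limma adjusted p = 0.0056). RUNX2, a factor of bone formation, was higher by 1.47 (limma adjusted p = 0.0219). The RUNX2 call was lost without KO#1 replicate 1 or 3 or sgControl replicate 3 (limma adjusted p 0.0736 to 0.0834). Of 34 HOX and partner genes 3 were lower (8.82%, near the 7.69% of all tested features) and 0 higher by limma. At an unadjusted p under 0.05 the counts were 8 and 0, and the median was −0.35. The 3 were HOXA13 (−1.02, SE 0.217, limma adjusted p = 0.0158), MEIS3 (−1.13, SE 0.305, limma adjusted p = 0.0392) and PBX3 (−1.08, SE 0.265, limma adjusted p = 0.0281). The HOXA13 call was lost without KO#1 replicate 1 or sgControl replicate 1 or 3 (limma adjusted p 0.0528 to 0.0591). The MEIS3 call was lost without any KO#1 library or sgControl replicate 1 or 3 (limma adjusted p 0.0614 to 0.15). The PBX3 call was lost without KO#1 replicate 1 or 3 or any sgControl library (limma adjusted p 0.0526 to 0.0853). Immediate early and heat shock genes had 1 higher and 4 lower of 42 (2.38% and 9.52%, beside 7.0% and 7.69% of all tested features). Of these calls 1 and 2 held. EGR1, an early growth response factor, had 15.3, 30 and 78.6 in KO#1 libraries, against 398, 160.2 and 166 in sgControl libraries (log2 fold change −2.69, SE 0.569, limma adjusted p = 0.0155), and DUSP6, a phosphatase of ERK, was higher at 232, 239.7 and 281 in KO#1 libraries, against 95, 119 and 72 in sgControl libraries (log2 fold change 1.41, SE 0.236, limma adjusted p = 0.00546). The EGR1 call was lost without KO#1 replicate 1 or sgControl replicate 1 (limma adjusted p 0.0516 to 0.0756). Without both libraries numbered 2 that list had 6 higher and 5 lower calls.

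Chromatin regulators were called at 1 higher and 2 lower of 66 (1.52% and 3.03%; 1 and 0 held), below the shares of all tested features. HDAC9, a class IIa histone deacetylase, was the higher one, with 331, 552 and 845 in KO#1 libraries, against 59.8, 156 and 85.9 in sgControl libraries (log2 fold change 2.51, SE 0.412, limma adjusted p = 0.00502). DNMT1, which copies DNA methylation at replication, had 1253, 2426 and 1294 in KO#1 libraries, against 1721, 3651 and 1647 in sgControl libraries and DNMT3B 81.1, 208 and 134 in KO#1 libraries, against 53.3, 106 and 69.6 in sgControl libraries, and neither passed (limma adjusted p = 0.429 and 0.182). Among 26 imprinted and X-linked ARMCX genes 6 were higher (23.1%) and 2 lower (7.69%), of which 3 and 0 held, with a median of 0.38. ARMCX2 had 468, 328 and 412 in KO#1 libraries, against 9.44, 13.6 and 7.33 in sgControl libraries (log2 fold change 5.21, SE 0.288, limma adjusted p = 2.17e-05). The imprinted non-coding RNA MEG3 had 529, 456 and 208 in KO#1 libraries, against 11.4, 9.78 and 4.0 in sgControl libraries (log2 fold change 5.4, SE 0.453, limma adjusted p = 0.000192). MEST, an imprinted hydrolase family gene, had 0, 0.556 and 0 in KO#1 libraries, against 19.6, 25.6 and 21 in sgControl libraries (log2 fold change −4.3, SE 0.461, limma adjusted p = 0.00065, with −1.65 and −6.88 at pseudocounts of 10 and 0.1). MEST averaged under 10 without any sgControl library and was then not tested.

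**Figure D4:**
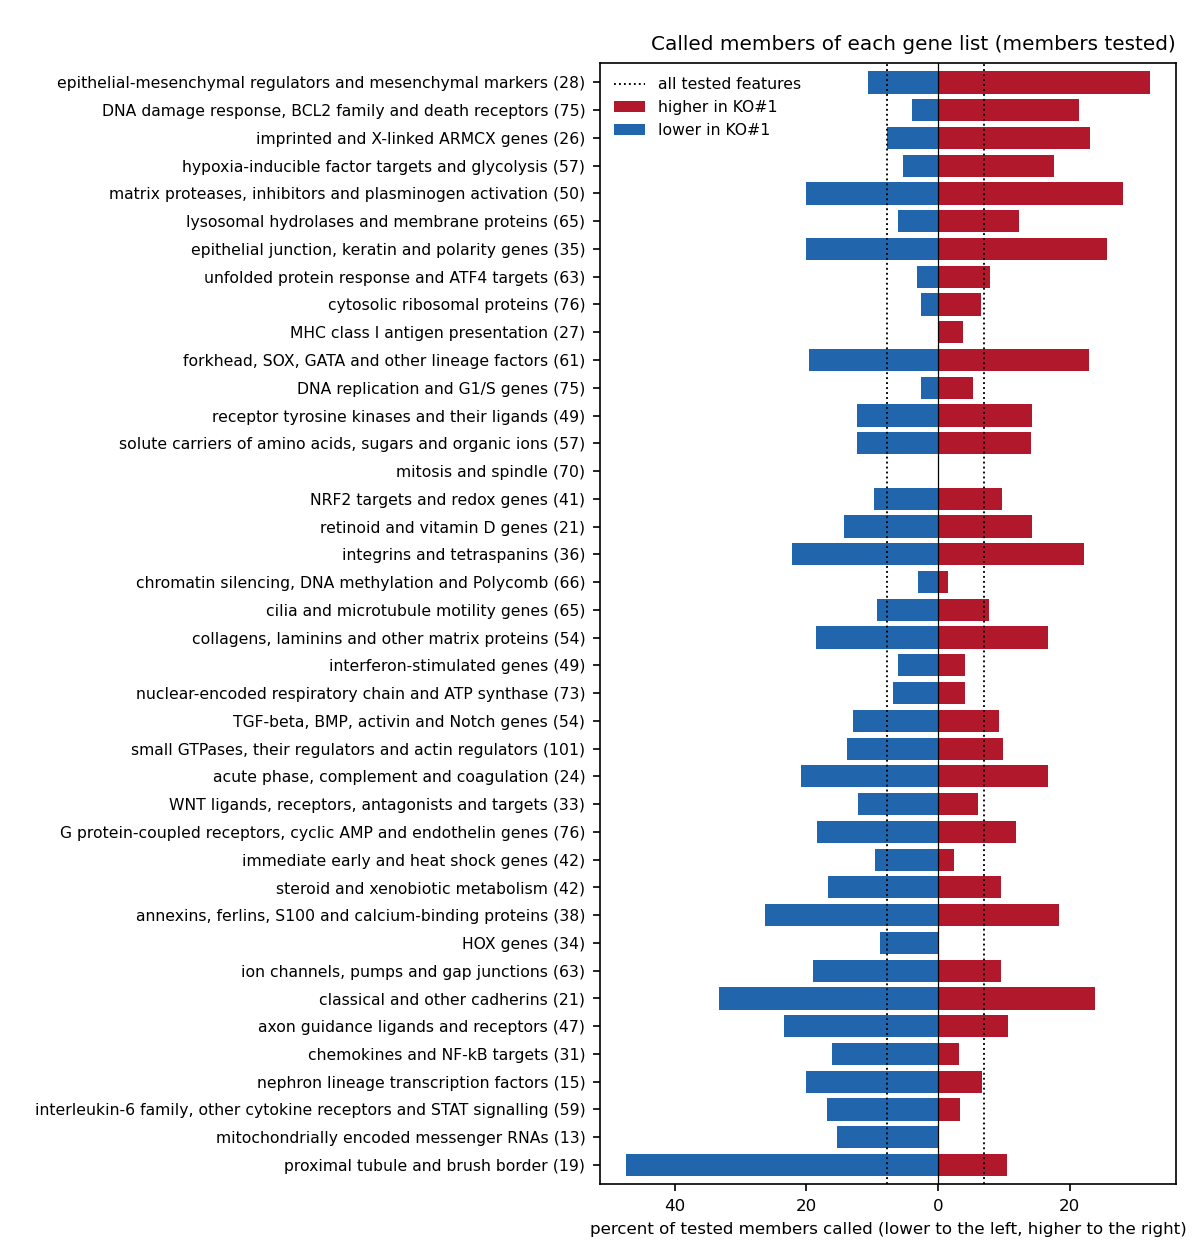
Percent of the tested members of each gene list called higher in KO#1 (red, to the right) and lower in KO#1 (blue, to the left), ordered by the difference, with the number tested in brackets. The dotted lines mark all tested features, at 7.0% higher and 7.69% lower. The proximal tubule list reaches 47.4% lower and the mesenchymal list 32.1% higher. Members at 0 in sgControl, such as SNAI2 and TRPS1 of the mesenchymal list, are counted although they entered the test only through their KO#1 signal.

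Genes of some chromosomes were shifted together. Chromosomes were assigned by gene name from GENCODE 29 for 12341 of the tested features. The median log2 fold change was 0.64 on chromosome 20, where 124 of 339 genes were called higher (36.6%) and 12 lower, 0.40 on chromosome 15 (85 of 411 higher) and 0.30 on chromosome 8 (75 of 426 higher). It was −0.21 on chromosome 19, −0.20 on chromosome 7 and −0.16 on chromosome 2, where 132 of 856 were lower. Relative to the mean of the sgControl libraries, the chromosome 20 median was 0.68, 0.59 and 0.60 in the 3 KO#1 libraries, and −0.09 to 0.07 in the sgControl libraries, which are centred near 0 by construction. Removing each chromosome's median, chosen after seeing the data, left 584 features higher and 869 lower, so that the share of higher genes among the calls was 40.2% beside 47.6% without this step. DNA copy number was not measured here, and the part of chromosome dosage in these values was not tested.

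**Figure D5:**
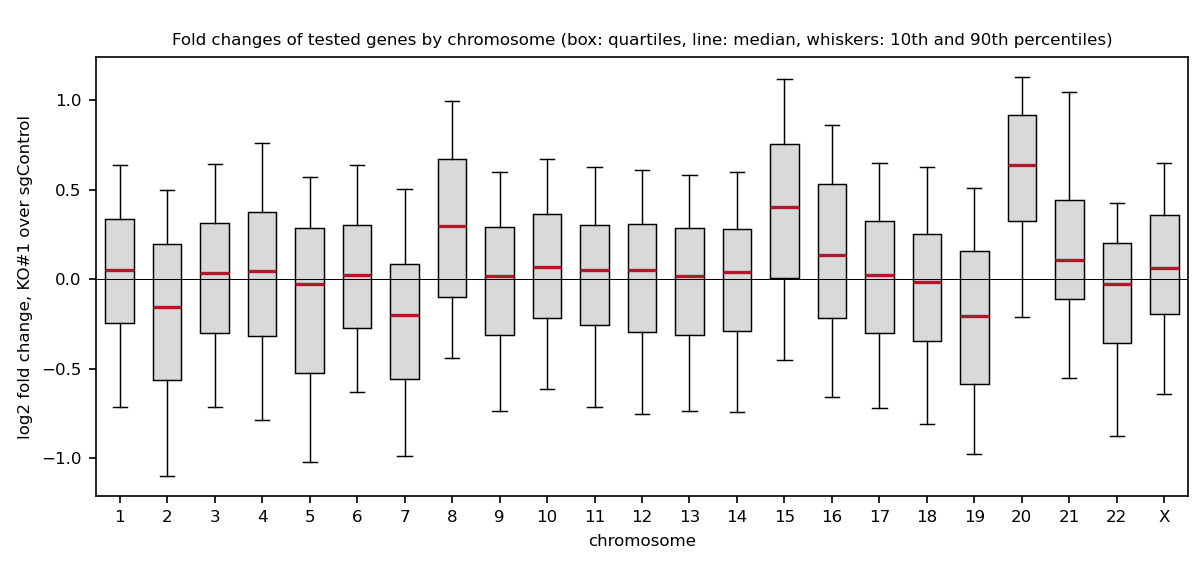
Log2 fold changes of KO#1 over sgControl for tested genes on each chromosome (red line, median; box, quartiles; whiskers, 10th and 90th percentiles). Chromosomes 20, 15 and 8 lie above 0, with medians of 0.64, 0.40 and 0.30, and chromosomes 19, 7 and 2 below it.

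To see where guide 1 differed from the second guide, KO#1 libraries were set directly against KO#2 libraries, ACHN with ELOVL5 targeted by guide RNA #2. Of 12934 features tested 0 were called by limma (0.0%), and 263 had an unadjusted p under 0.05. KO#2 replicate 1 stood apart from the other libraries; without it 1 feature was called, KIAA1199, and 677 had an unadjusted p under 0.05. KIAA1199, a hyaluronan-binding protein, stood at 249, 334 and 223 in KO#1 and 87.4, 20.1 and 23 in KO#2 libraries (log2 difference without KO#2 replicate 1 3.56, SE 0.287, limma adjusted p = 0.0374). A fit of 8 libraries, without that library and with sgControl in the estimate of spread, called 6 features higher and 6 lower in KO#1. Higher were ADAMTS12, with 144, 263 and 536 in KO#1 and 0, 12.7 and 17.4 in KO#2 libraries (limma adjusted p = 0.0343), and CYP24A1, with 58.3, 54.8 and 88.3 in KO#1 and 23.1, 3.56 and 5.11 in KO#2 libraries (limma adjusted p = 0.0343). KIAA1199, KIAA1462, FOXF2 and WNT5A were the other 4. Lower were EPCAM, with 43.4, 58.8 and 69.2 in KO#1 and 93.7, 329 and 349 in KO#2 libraries (limma adjusted p = 0.0299), and SLC17A1, with 13, 26.9 and 24.6 in KO#1 libraries, against 178, 252 and 247 in those of KO#2 (limma adjusted p = 0.0127). NFIA, a nuclear factor I gene, was lower too, at 17.9, 45.1 and 33.3 in KO#1 libraries, against 45.1, 196 and 212 in those of KO#2 (limma adjusted p = 0.0343), as were ACSL1, CLCN7 and PDE4D. EPCAM and SLC17A1 also differed between KO#1 and sgControl, but in unlike ways. EPCAM was above its sgControl signals (4.89, 4.89 and 5.0) with both guides, and less so with guide 1. SLC17A1 stood near its sgControl signals (206, 147 and 209) with guide 2, so only guide 1 libraries were low. In the direct comparison with KO#2 replicate 1 kept, neither passed (limma adjusted p = 0.888 for EPCAM and 0.558 for SLC17A1). The 0 calls do not show that the guides act alike.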

How the data were processed

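RNA of ACHN cells was purified with RNeasy Mini columns, made into NEBNext Ultra Directional libraries and read as paired ends on a NextSeq500, per the labels' protocols. The deposited table gives, for 9 libraries, a signal per gene name that the authors quantile-normalized from read counts, per the name of the table. Aligner, counter and strand setting were not given in the sources used here. Per the submitters' processing notes the build was mm10, of mouse, while the gene names are human, so no coordinates of the table are given, and overlapping or near-identical genes are uncertain. All library totals are equal, so depth is unknown and no count model was used.

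Signals were taken as log2(signal + 1), features averaging at least 10 across the 6 libraries were kept, and limma 3.58.1 (R 4.3.3, two-sided, variance trend) compared KO#1 with sgControl. A call is a Benjamini-Hochberg adjusted p under 0.05. The procedure was tested on simulated data. Replicate numbers are sample order. Sample columns left unused numbered 0. Chromosomes came from GENCODE 29 (GRCh38) by name, for 12341 of 12849 features, and promoter windows from RefSeq.

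The comparison and its 45 gene lists were chosen with earlier results of these data known. The text names ELOVL5; among called genes above the median mean, the 12 higher and 12 lower with the largest absolute fold change; the 5 higher and 5 lower with the largest mean; the genes at 0 in 1 group with the highest mean in the other (6 at most); and up to 4 called members of each list with the largest absolute fold change, or, where none was called, the 2 with the smallest p. The rule also covered called differences between the guides. Genes outside it, chosen after their values were seen, were AEN, AXL, BHLHE40, CDH2, CDKN1A, CELSR1 to CELSR3, COL4A1, DNMT1, DNMT3B, DSP, EFNA2, ELF3, EREG, HIF1A, IL6ST, KEAP1, KIAA1199, LLGL2, MDM2, MMP7, NDRG1, NFIA, NT5E, NTN1, OSMR, PDE4D, PLAT, PLAU, PLAUR, RHOB, RPS20, RPS27L, RUNX2, S100A2, S100A4, SPARC, TLR2, TNFRSF10A, TNFRSF10B, UNC5B, ZEB1 and ZEB2. Some genes that the rule names are not reported here. Alternatives were another pseudocount, other filters, no variance trend, array weights, other sets of libraries, a GC correction and removal of chromosome medians.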

Additional observations from a re-analysis of the deposited data

How the results depend on the processing

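Changing the pseudocount to 0.1 or 10, dropping the filter or the variance trend, weighting libraries, leaving out KO#2 replicate 1 from a joint fit, and smoothing on GC content kept each count of calls against sgControl within 1.5 times its value, although the pseudocount moved the fold changes of genes near 0 in 1 group. With a mean of at least 100 required, 1237 features were called, 567 of them higher. In a fit of all 9 libraries, which takes its spread from KO#2 as well, 311 were called (171 higher, 140 lower), and ELOVL5, at −1.11, no longer passed (limma adjusted p = 0.378), like 104 of 200 other called genes followed one by one; the other alternatives tried kept its call. Removing chromosome medians, chosen after seeing the data, left 584 higher calls. Without both libraries numbered 2, also chosen after seeing the data, 2244 were called (1065 higher, 1179 lower). Leaving out 1 library gave 889 to 2302 calls, 420 to 1110 of them higher and 441 to 1192 lower. KRT8, not called, ranged from −0.20 to 0.35 with 1 library left out, and no other gene followed one by one changed sign. List medians near 0 could change sign. That of the epithelial junction list went from 0.05 to −0.05 without both libraries numbered 2. The median of integrins and tetraspanins went from 0.057 to −0.002 with chromosome medians removed.

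Between the guides, leaving out 1 library gave 0 to 1 calls, with 0 to 1 higher and 0 lower, and the fit of 8 libraries without KO#2 replicate 1 gave 12, with 6 higher and 6 lower. Array weights were not run there, because their estimate did not converge. No paired analysis was possible because the labels give no replicate numbers. Equal library totals hide the depth, so how many reads stand behind a low signal is unknown, and calls of genes with a mean near 10 are the least certain.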
